A study of Arabidopsis thaliana with 18 samples.

Results

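The 102 probe sets described here are those whose signal was lower on the first 3 SA arrays than on the first 3 silwet arrays of Arabidopsis thaliana accession Est. They were chosen on log2(signal + 16), among 11967 of 22746 non-control probe sets whose mean signal over 18 arrays was at least 30. A probe set had to be lower by at least 1 on that scale, and its highest SA array had to lie under its lowest silwet array. The fall was reached by 120 probe sets, 15 of these overlapped between treatments, and 105 met both conditions, which is 0.877% of those tested. Of the 105, AOP3, AT4G01130 and AT1G29660 were set aside by name, which left 102. PRK, also set aside by name, did not meet the rule. Because the first runs chose the set, their values are a description with no test, and only the later runs can be tested.

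Total RNA was taken from Est plants, and the material read on Affymetrix ATH1 arrays carried a biotin label. On these arrays a probe set is a group of short oligonucleotides read as 1 signal. Of the 18 arrays, 9 came from plants given 0.02% silwet, a surfactant that wets leaves, and 9 from plants given 0.3 mM SA in 0.02% silwet, so silwet is common to all. The title numbers run from 37 to 54, and 3 successive titles that carry replicate numbers 1 to 3 are called a run. The silwet runs begin at titles 37, 40 and 43, and the SA runs at titles 46, 49 and 52. The labels do not say what separates the runs or whether arrays came from separate plants. They also do not state which SA run belongs with which silwet run. Each title carries a further number that is not explained. Within a replicate number, ordering by it puts each SA array directly after the silwet array of the run with the same rank. The run pairs below, called the first, the second and the third, follow title order, which that further number matches. The p-values measure only the spread between these arrays, part of which may be technical. The sources used here give no tissue, plant age or harvest time.

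SA, read here as salicylic acid, is a plant hormone that builds up on infection by pathogens that feed on living tissue, and it switches on defence genes through the co-activator NPR1. Raised SA signalling is known for its cost to growth: genes for wall loosening, auxin responses, photosynthesis and sugar use are among those that are often lowered. Plant cells grow by loosening a wall of cellulose, hemicellulose and pectin, and enzymes and inhibitors secreted to that wall set how far it yields.

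The set could be named only in part. A single gene was paired with 46 of the 102 probe sets, each a different locus, several genes with 2, and none in the annotation used here with 54. Names and loci follow GEO's platform annotation matched to RefSeq's table of assembly TAIR10.1. Of the 46 named genes, 34 have a role that can be given from general knowledge. These roles were assigned after the values were known: 12 are wall or secreted proteins, 5 act in plastids or starch, 4 in sugar synthesis or transport, 2 in other transport, 5 in growth or signalling, 4 in specialised metabolism, and 2 are small secreted proteins of defence-type families. How many of the 6357 tested probe sets with 1 gene name have each role was not counted. No role is therefore shown to be more common among members.

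An array's median signal was 27.4 at the lowest and 35.7 at the highest. For the GAPDH control, the 3' over 5' signal in log2, a measure of RNA length, ran from -0.29 to 0.12 on silwet 37 to 39 and from -0.29 to 0.29 on SA 46 to 48. For ubiquitin it ran from 1.26 to 1.66 and from 1.26 to 1.46 in the same runs. For actin it ran from 1.42 to 2.01 on that silwet run and from 1.07 to 2.42 on that SA run, highest on title 47. On the later arrays GAPDH reached 0.80 on silwet title 44 and 0.85 on SA title 53. Ubiquitin ran from 1.53 to 1.92 and from 1.62 to 2.26 on the later SA runs, above every array of the first SA run. On the later silwet runs it ran from 1.65 to 2.07 and from 1.65 to 1.84. The part of RNA length in the results was not tested. Of 24 fixed cell type markers, 5 could be named: the leaf gene RCA, which encodes rubisco activase, read 1784 to 3646 on all arrays, while the root hair genes EXPA7 and EXPA18 stayed at or under 13.1 and 16.3. The root gene PYK10 read 53.8 to 254. The guard cell gene FMA moved with the set in the first run pair, with 46.6 to 49.8 on silwet and 31.9 to 40.4 on SA and no overlap, and read 32.4 to 48.3 on the later arrays; its part in the result was not tested. In whole samples such as these, fewer cells of a type and less RNA per cell cannot be told apart.

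In the first run pair the 102 probe sets were lower by up to 2.08 on the log2 scale, with a median of -1.15 beside -0.06 over all 11967. Arrays paired by replicate number gave member medians of -0.89, -1.63 and -1.05, so SA title 47 lay lowest beside silwet title 38. The first SA run was the lowest of the 6 runs for 101 of the 102. AT1G01320, lowest in the SA run of titles 52 to 54, was the exception. All 3 of those first SA arrays lay under all 15 other arrays in 73 of the 102. The rule had already placed these SA arrays under the arrays of the first silwet run in every member. The counts of 101 and 73, and the low level of the first SA run given next, follow in part from that choice. Both counts were made for members only and not over all tested probe sets. The median member level was 7.72, 7.73 and 7.88 in the silwet runs and 6.53, 8.06 and 7.97 in the SA runs, so the first SA run stood more than 1 log2 unit under every other run and both later SA runs stood above the silwet runs.

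**Figure D1:**
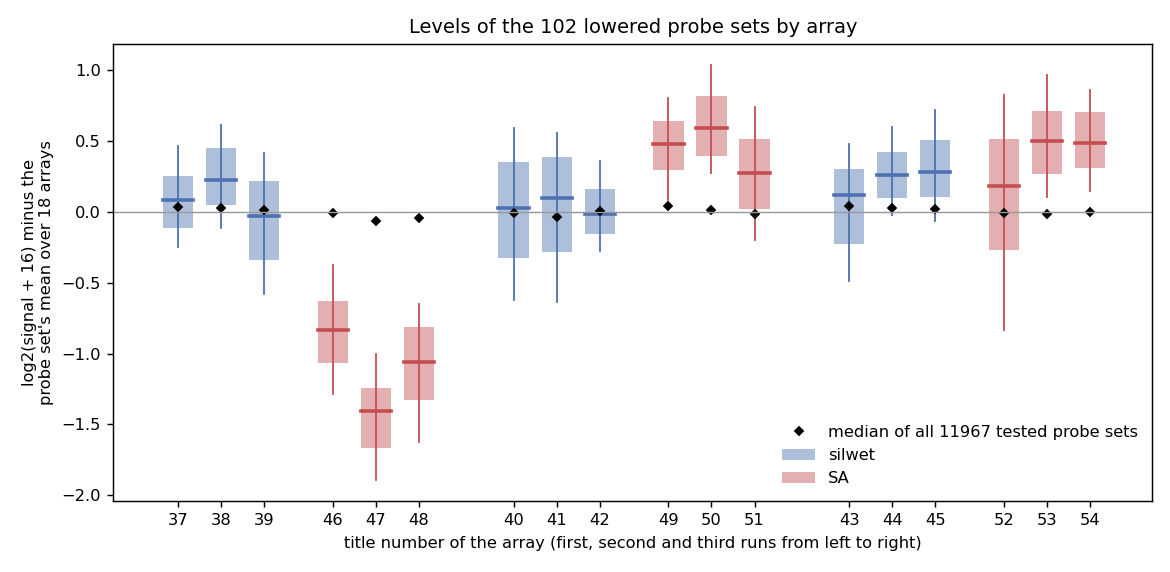
Each probe set's log2(signal + 16) minus its own mean over the 18 arrays (vertical axis, log2) for each array (horizontal axis, title number), with silwet in blue and SA in red. The thick line is the median of the 102 lowered probe sets, boxes run from the 25th to the 75th percentile, thin lines from the 10th to the 90th, and diamonds give the median of all tested probe sets. SA titles 46 to 48 sit at medians of -0.84, -1.41 and -1.06, while the other arrays lie between -0.03 and 0.59.

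At the edge of the rule, the smallest falls inside were those of probe sets 247246_at (-1.0) and 266395_at (-1.01), AT1G66820 (-1.01), AT2G05920 (-1.01) and AT2G03420 (-1.02). Just outside, AT5G21100, AT3G09540 and AOP1 differed by -0.9996, -0.9956 and -0.9956. The number chosen leans on single arrays. Without replicate 2, which are titles 38 and 47, 60 probe sets met the rule, 46 of them members, against 268 without replicate 1 and 157 without replicate 3. With an offset of 1 in place of 16 the number was 240, and with 64 it was 24.

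Among wall and secreted proteins, the 12 genes had differences from -1.5 to -1.01 in the first run pair. AT5G62360 belongs to the invertase and pectin methylesterase inhibitor family, whose proteins restrain enzymes that act on pectin and sugar in the wall. Its signal in the first runs was 587, 402 and 515 on silwet and 161, 181 and 155 on SA. GH9C2 encodes an endoglucanase, an enzyme that cuts cellulose-like glucans, and read 375, 543 and 527 on silwet and 295, 103 and 144 on SA. In both genes every first-run SA array lay under every silwet array, as the rule requires.

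The fixed list of pectin genes had 12 loci, of which 1 was named on the array and 0 were tested, so the genes given here were picked for their role after their values were seen. AT1G60590 and AT5G63180 encode proteins of the pectin lyase-like superfamily and AT1G67750 a pectate lyase, which cuts pectin. AT1G60590 read 89.8, 123 and 42.3 on silwet 37 to 39 and 18.8, 12.5 and 27.8 on SA 46 to 48. AT1G67750 read 119, 105 and 51.0 on those silwet arrays and 31.9, 28.3 and 16.8 on those SA arrays. AT5G63180 differed by -1.34. TBL26, of a family that acetylates wall polysaccharides, differed by -1.21, and SKU5, a membrane-anchored wall protein of directional root growth, by -1.12. AT3G26960 and AT5G41050 of the pollen Ole e 1 and extensin family differed by -1.03 and -1.02. The proteases were AT1G09750, an aspartyl protease (-1.15), and the subtilisin-like AT5G45650 (-1.19) and AT2G05920 (-1.01), which belong to families with many secreted members.

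Plastid and starch genes numbered 5, with first-pair differences from -1.10 to -1.38. CRR42, an assembly factor of the chloroplast NADH dehydrogenase-like complex, which works in electron flow around photosystem I, read 131, 145 and 92.0 on silwet 37 to 39 and 80.2, 35.8 and 36.8 on SA 46 to 48. AT3G55760, a plastid protein of starch metabolism, read 112, 124 and 73.2 on silwet and 41.1, 20.5 and 27.8 on SA. AT5G09820, a fibrillin, belongs to the proteins that line plastid lipid bodies and membranes. AT4G28080 and AT1G01320 are related tetratricopeptide repeat proteins of a family that sets how much of the cell the chloroplasts fill, and they differed by -1.27 and -1.12.

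Few core photosynthesis genes could be read under a name. Lists of light-harvesting, photosystem and carbon fixation genes held 3, 5 and 5 tested probe sets, none a member, with first-pair medians of -0.18, -0.04 and -0.23 beside -0.06 over all. For chlorophyll and isoprenoid synthesis the median over 3 was -0.58, with 3 of 3 lower and none by 1. Over all tested, 42.1% were higher in the first pair. Expansins, which loosen walls, had 7 tested, 4 of these lower, and a median of -0.01. The 2 tested genes of cellulose synthesis had a median of -0.35 and XTH16, the single tested xyloglucan enzyme, -0.35. Over all 18 lists, with 375 loci, 40 loci were tested and 1 was a member, AT2G31790, so most of these pathways were not measured under a single name.

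Sugar genes were ATSPS4F, SWEET1, TMT2 and SFP1. ATSPS4F encodes a sucrose phosphate synthase, the enzyme that commits carbon to sucrose, and read 126, 108 and 154 on silwet 37 to 39 and 35, 30.9 and 54.7 on SA 46 to 48. SWEET1, a sugar transporter that moves glucose down its gradient, read 273, 265 and 276 on silwet and 122, 102 and 122 on SA. TMT2, which loads sugars into the vacuole, differed by -1.13, and SFP1, of a family of sugar transporters, by -1.07. Other transporter families had a gene each: AT1G68600, of the aluminium-activated malate transporters, with -1.58, and AT3G21670, of the nitrate and peptide transporters, with -1.30.

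Growth and signalling genes were STOMAGEN, AT3G15570, AT3G20820, AT1G78020 and AT1G74940. STOMAGEN encodes a secreted peptide that promotes stomatal development, and read 92.3, 165 and 66.3 on silwet 37 to 39 and 35.8, 34 and 37.2 on SA 46 to 48. AT3G20820, a leucine-rich repeat protein, read 453, 415 and 433 on silwet and 188, 121 and 133 on SA. AT3G15570 of the NPH3 family, known from phototropism, differed by -1.33, and AT1G78020 and AT1G74940 of the FCS-like zinc finger family by -1.30 and -1.15.

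In specialised metabolism, AT2G31790 encodes a glucosyltransferase of aliphatic glucosinolates, the sulphur-rich defence compounds of the cabbage family. It read 224, 296 and 152 on silwet 37 to 39 and 70.4, 43.5 and 75.8 on SA 46 to 48. The list of glucosinolate genes held 3 tested probe sets, lower in 3 of 3 with a median of -0.87. These were AT2G31790 itself, which this pair had chosen, BCAT4 (-0.87) and UGT74B1 (-0.25). Over all tested the first-pair median was -0.06 and 42.1% were higher, so the list adds little beyond the chosen gene. UGT78D1, which attaches rhamnose to flavonols, differed by -1.12, the oxygenase family gene AT3G19000 by -1.36 and the acyltransferase family gene AT5G67150 by -1.08. The small secreted proteins were AT5G48490, a lipid transfer protein close to DIR1, a carrier in systemic resistance, and AT2G43550, a defensin-like trypsin inhibitor. They differed by -1.02 and -1.23. Among members with no single name, 252607_at read 113, 369 and 110 on silwet and 53.0, 31.0 and 25.5 on SA.

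The second run pair asked whether the same probe sets were lower in SA titles 49 to 51 than in silwet titles 40 to 42, arrays that did not choose them. They were not: 97 of the 102 (95.1%) were higher with SA, against a background of 55.2% of all tested. The median difference was 0.44 beside 0.03 over all, with quartiles of 0.30 and 0.60 and a whole range from -0.38 to 1.03. A difference of at least 0.5 was seen in 38 members (37.3%) and 3.06% of all. No probe set was called by limma after Benjamini-Hochberg adjustment (0 of 11967, a background of 0%, smallest adjusted p 0.555). Before adjustment, 32 members (31.4%) were higher at p under 0.05 beside 3.01% of all, and 0 were lower beside 2.74%. The members shared samples, so the 97 are not independent of each other.

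Per array, all 3 SA arrays lay above all 3 silwet arrays in 25 members (24.5%), beside 6.06% of all tested, and below them in 0, beside 4.86%. By replicate number the member medians were 0.45, 0.56 and 0.22, higher in 88, 89 and 73 members. With the replicate number as a block, 51 members were higher at an unadjusted p under 0.05, beside 5.12% of all, and the adjusted count was again 0. Within this pair the same-numbered arrays had correlations of 0.37, 0.003 and -0.11, so only those of replicate 1 varied together.

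**Figure D2:**
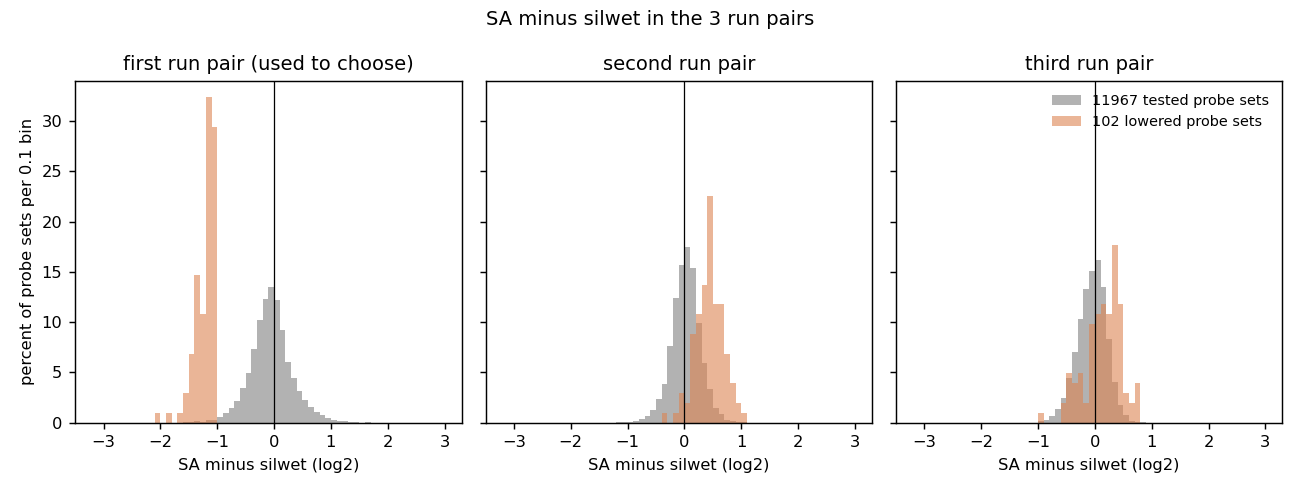
Percent of probe sets (vertical axis) in each 0.1-wide bin of SA minus silwet on log2(signal + 16) (horizontal axis) in the 3 run pairs, with all 11967 tested probe sets in grey and the 102 lowered ones in orange. In the first run pair, which chose them, the lowered sets end at -1.0; their medians lie at 0.44 in the second and 0.18 in the third, where all tested lie at 0.03 and -0.03.

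In the third run pair, SA titles 52 to 54 against silwet titles 43 to 45, 73 of the 102 (71.6%) were higher with SA, beside 44.9% of all tested. Their median was 0.18 beside -0.03, and differences ran from -0.98 to 0.80. No probe set was called by limma (0 of 11967, a background of 0%, smallest adjusted p 0.828). Before adjustment, 12 members (11.8%) were higher at p under 0.05 beside 1.57% of all, and 0 were lower beside 3.65%; with the replicate block 16 were higher beside 2.98%. All 3 SA arrays lay above all 3 silwet arrays in 16 members (15.7%), beside 4.3% of all, and below them in 4 (3.92%), beside 8.36%. By replicate number the medians were 0.15, 0.25 and 0.21, higher in 61, 77 and 81 members. Same-numbered arrays varied together for all 3 replicate numbers within this pair, with correlations of 0.67, 0.55 and 0.53.

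Across the later pairs, 68 members were higher in each, 29 higher in the second and lower in the third, 5 the other way round and 0 lower in both. This split was not counted over all tested probe sets, of which 55.2% were higher in the second pair and 44.9% in the third. For the mean of the later pairs the median member difference was 0.29, with 95 of 102 higher beside 46.2% of all. Again limma called 0 of 11967, a background of 0%, with a smallest adjusted p of 0.468. At an unadjusted p under 0.05, 33 members (32.4%) were higher beside 2.59% of all, and 0 were lower beside 3.19%. With the replicate number as a block the adjusted count was 3 of all tested (0.0251%), and 1 of these, AT5G62360, was a member. Same-numbered arrays did vary together over the mean of both later runs, with correlations of 0.75, 0.50 and 0.59.

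The difference between the third and second pairs was tested in the same fit. Its member median was -0.24 beside -0.06 over all, limma called 0 of 11967 (a background of 0%), and 6 members were lower and 1 higher at an unadjusted p under 0.05, where the backgrounds were 3.67% and 1.59%. Between the later SA runs alone the member median was -0.08, which turned to 0.03 without replicate 1 or without titles 40, 43 and 52 and was -0.23 without replicate 3, with 2 members higher and 2 lower in titles 52 to 54 at an unadjusted p under 0.05 beside 1.1% and 1.37% of all. Between the later silwet runs it was 0.14, and 72 members were higher in titles 43 to 45, of which 15 were so at an unadjusted p under 0.05 beside 3.16% of all, with 0 lower beside 2.15%. For both of these limma called 0 of 11967. Since no label states the pairing, the later SA runs were also set against the other later silwet run, against the order of the further title number. Titles 49 to 51 against 43 to 45 gave a median of 0.23 with 82 members higher. Titles 52 to 54 against 40 to 42 gave 0.30 with 90 higher.

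AT5G62360, the pectin and invertase inhibitor family gene, was high with SA in both later pairs. It read 427, 519 and 404 on silwet 40 to 42 and 761, 1094 and 901 on SA 49 to 51, then 393, 710 and 375 on silwet 43 to 45 and 718, 1120 and 718 on SA 52 to 54. The treatments did not overlap in either pair. Its difference was 1.0 (SE 0.25, 95% interval 0.45 to 1.54) in the second pair and 0.80 (SE 0.25, 0.25 to 1.34) in the third, with limma adjusted p of 0.555 and 0.828. For the mean of both pairs the difference was 0.90 (SE 0.18, adjusted p 0.544). With the replicate block the adjusted p for the mean was 0.0194, and over the other alternatives it ran from 0.155 to 1.0, so the call rests on the block.

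Of the 12 wall and secreted genes, AT5G62360 included, 12 were higher with SA in the second pair, with a median of 0.63, and 6 in the third, with a median of 0.02. Without titles 40, 43 and 52 the counts were 11 and 10, with medians of 0.34 and 0.25, so the third-pair count rests on those replicate 1 arrays. Leaving out replicate 2 or replicate 3 gave 5 of 12 in the third pair. At an unadjusted p under 0.05, 4 of 12 were higher in the second pair and 2 of 12 in the third, where the shares were 31.4% and 11.8% of all members and 3.01% and 1.57% of all tested. Whatever the p, 95.1% of all members were higher in the second pair and 71.6% in the third, beside 55.2% and 44.9% of all tested. Counts by role, here and below, are to be read beside these shares. AT1G60590 read 95.9, 59.0 and 66.4 on silwet 40 to 42 and 208, 248 and 64.3 on SA 49 to 51, so title 51 overlapped silwet, and differed by 0.93 (SE 0.41). In the third pair its difference was 0.11 (SE 0.41). TBL26 differed by 0.70 (SE 0.25) and then -0.04, and AT5G63180 by 0.55 (SE 0.25) and then -0.20. AT5G41050 went the other way round in size, with 0.24 (SE 0.20) in the second pair and 0.61 (SE 0.20) in the third.

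SA title 52 read low for several wall and plastid genes and high for other members. Member deviations from their own means there ran from -0.83 at the 10th percentile to 0.83 at the 90th. TBL26, also a wall gene, read 97.3 on title 52 beside 62.5 and 61.8 on titles 53 and 54. AT1G09750 read 53.8 on title 52 beside 1268 and 1374 on titles 53 and 54, and 249 on silwet title 43 beside 1154 and 1085 on titles 44 and 45. On the second-run silwet arrays it read 234, 627 and 785, where title 40 was the low one, and on SA 49 to 51 it read 1060, 1300 and 765. Titles 40, 43 and 52 all carry replicate number 1. The same 3 arrays were the lowest of their runs for AT5G45650, with 64.1, 100 and 48.7. GH9C2 read 399, 869 and 645 on silwet 40 to 42 and 666, 1241 and 705 on SA 49 to 51, then 400, 645 and 615 on silwet 43 to 45 and 201, 853 and 878 on SA 52 to 54. For the pectate lyase AT1G67750, title 52 read 49.6 beside 277 and 237.

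Values without titles 40, 43 and 52, a setting chosen after seeing the data, were computed for each. Over the set the medians became 0.39 in the second pair, with 97 higher, and 0.24 in the third, with 84 higher. AT1G09750 moved from 1.03 to 0.53 in the second pair and from -0.49 to 0.24 in the third, GH9C2 from 0.45 to 0.15 and from -0.01 to 0.45, and AT1G67750 from 0.84 to 0.41 and from 0.06 to 0.70. With all arrays the standard errors were 0.94 for AT1G09750, 0.47 for GH9C2 and 0.50 for AT1G67750.

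**Figure D3:**
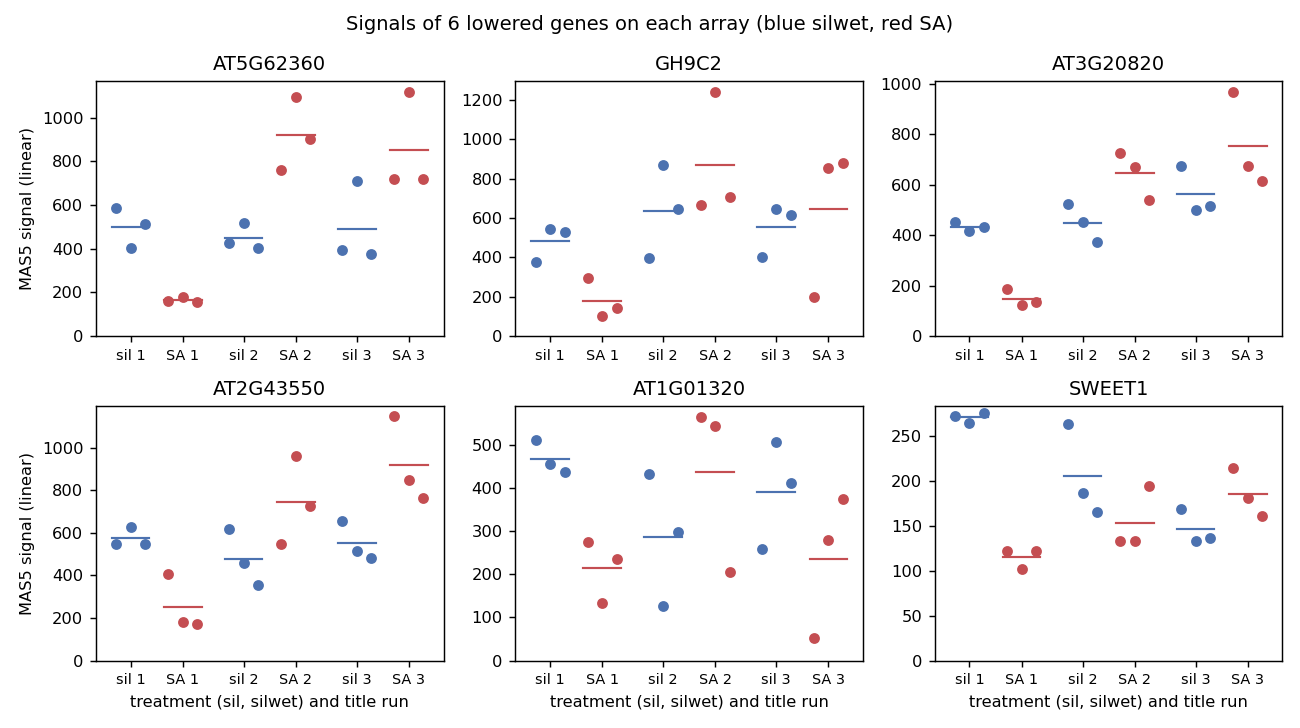
MAS5 signal (vertical axis, linear) of AT5G62360, GH9C2, AT3G20820, AT2G43550, AT1G01320 and SWEET1 on each array, grouped by run (horizontal axis), with silwet in blue and SA in red. Points are single arrays in title order and lines are run means; all 6 genes are low in the first SA run, and in the later runs AT5G62360 is high with SA while the SA differences of AT1G01320 and SWEET1 change sign between the later pairs.

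Plastid and starch genes were higher with SA in 5 of 5 in the second pair, with a median of 0.61, and in 3 of 5 in the third, with a median of 0.17 that turned to -0.19 without replicate 2. The shares of all members that were higher were 95.1% and 71.6%. AT1G01320 read 433, 126 and 298 on silwet 40 to 42 and 565, 542 and 206 on SA 49 to 51, then 258, 507 and 410 on silwet 43 to 45 and 53.0, 278.9 and 375 on SA 52 to 54. Its treatments overlapped in both pairs, and the differences were 0.61 (SE 0.60) and -0.98 (SE 0.60), the latter the lowest of all members in the third pair. Without titles 40, 43 and 52 they were 0.98 and -0.48. Its relative AT4G28080 gave 0.62 (SE 0.58) and -0.44 (SE 0.58), with title 52 at 64.7 beside 238 and 416. AT5G09820 differed by 0.70 (SE 0.29) and 0.45 (SE 0.29), CRR42 by 0.18 and 0.32 (SE 0.20 each), and AT3G55760 by 0.17 in each pair (SE 0.39).

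Among sugar genes, 3 of 4 were higher with SA in the second pair and 2 of 4 in the third. Among all members the shares were 95.1% and 71.6%. SWEET1 had the lowest second-pair difference of all members: 264, 187 and 166 on silwet 40 to 42 and 133, 133 and 195 on SA 49 to 51, a difference of -0.38 (SE 0.21) with overlapping arrays. In the third pair it read 169, 133 and 136 on silwet and 215, 181 and 161 on SA, a difference of 0.31 (SE 0.21). ATSPS4F went the other way, with 68.3, 54.2 and 83.9 on silwet and 189, 151 and 96.2 on SA in the second pair, where the treatments did not overlap, and a difference of 0.90 (SE 0.39). In the third pair it read 54.9, 146 and 170 on silwet and 43.3, 104 and 138 on SA and differed by -0.32 (SE 0.39), with -0.35 to -0.27 when a replicate number was left out and 0.30 for the same SA run against silwet 40 to 42. SFP1 lay higher with SA without overlap in both pairs, by 0.26 and 0.33 (SE 0.16 each), and TMT2 differed by 0.21 and -0.03 (SE 0.24 each). AT1G68600 differed by -0.14 and 0.31, and AT3G21670 by 0.45 and 0.49.

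Growth and signalling genes were higher with SA in 5 of 5 in both pairs, with medians of 0.36 and 0.37. Over all members 95.1% and 71.6% were higher, and over all tested 55.2% and 44.9%. AT3G20820 read 522, 451 and 373 on silwet 40 to 42 and 727, 672 and 539 on SA 49 to 51, with no overlap, and 675, 499 and 514 against 968, 674 and 614 in the third pair, where title 43 overlapped SA. The differences were 0.51 (SE 0.21) and 0.39 (SE 0.21). STOMAGEN gave 0.33 and 0.34 (SE 0.34 each), with intervals of -0.40 to 1.06 and -0.39 to 1.06, and AT3G15570 0.41 and 0.17 (SE 0.24 each). AT1G78020 gave 0.36 and 0.46, and AT1G74940 0.19 and 0.37 (SE 0.21 for both genes).

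Both small secreted proteins were higher with SA in each later pair, as were 68 of all 102 members. AT2G43550 read 617, 459 and 357 on silwet 40 to 42 and 550, 959 and 725 on SA 49 to 51, and then 656, 515 and 483 on silwet 43 to 45 and 1148, 846 and 763 on SA 52 to 54. The treatments overlapped in the second pair and not in the third, and the differences were 0.62 (SE 0.24) and 0.71 (SE 0.24). AT5G48490 read 167, 274 and 292 on silwet and from 325 to 406 on SA in the second pair, without overlap, and 125, 241 and 441 on silwet and from 369 to 529 on SA in the third, with overlap. Its differences were 0.61 and 0.79 (SE 0.34 each).

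Specialised metabolism genes were higher with SA in 4 of 4 in both pairs, with medians of 0.48 and 0.29, where 95.1% and 71.6% of all members were. In the second pair 3 of the 4 reached an unadjusted p under 0.05, beside 31.4% of all members and 3.01% of all tested. AT2G31790 read 104, 122 and 149 on silwet 40 to 42 and 180, 318 and 133 on SA 49 to 51, with title 51 inside the silwet range, and its differences were 0.61 (SE 0.27) and 0.15 (SE 0.27). AT3G19000 differed by 0.46 and 0.34 (SE 0.17 each), UGT78D1 by 0.49 and 0.24 (SE 0.24 each) and AT5G67150 by 0.47 and 0.33 (SE 0.21 each). Among the 12 named genes whose role is not given, 11 were higher in each pair, and AT1G55360, with 143, 211 and 212 on silwet 40 to 42 and 354, 459 and 259 on SA 49 to 51, differed by 0.85 (SE 0.21) and then 0.27. AT4G35320 was the exception in the second pair with -0.09 (SE 0.28). AT4G37080, with the largest first-pair fall of these 12 (-1.30), gave 0.62 (SE 0.25) and 0.04.

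**Figure D4:**
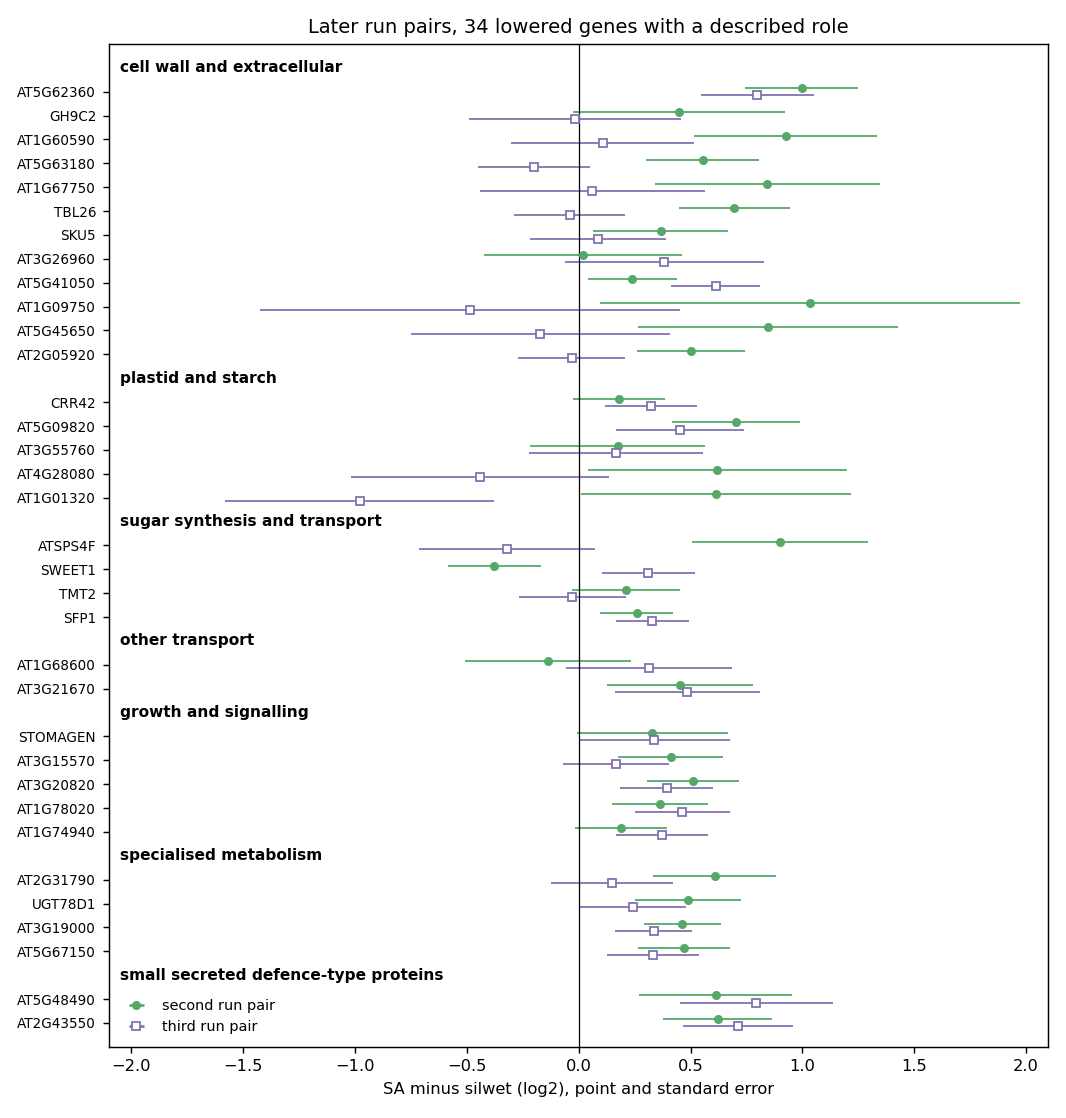
SA minus silwet on log2(signal + 16) (horizontal axis) for the 34 lowered genes with a described role (vertical axis, grouped by role), as points with standard errors from limma over 12 arrays. Green circles are the second run pair and purple squares the third; the 12 wall and secreted genes lie above 0 in the second pair, and in the third 6 of 12 do with all arrays and 10 of 12 without titles 43 and 52.

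The 56 members without a single name followed the same order of medians, 0.42 in the second pair with 54 higher and 0.14 in the third with 38 higher. The 4 members whose SA arrays all lay under silwet in the third pair were among these: 250268_s_at, 252468_at, 256746_at and 264360_at, singled out after their values were seen. SA lay above silwet without overlap in both later pairs for 6 members: AT5G62360, SFP1, AT5G62140, AT1G55360, 258919_at and 262536_at. The share of all tested probe sets that did so in both pairs was not counted. In the single pairs the shares were 6.06% and 4.3% of all tested, beside 24.5% and 15.7% of members. These single-pair shares are no background for the count in both pairs at once.

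Probe sets with smaller first-pair differences were set beside the members. Over all tested, the 1032 that were lower by 0.5 to 1 in the first pair had later medians of 0.24 and 0.05, and the 5772 lower by less than 0.5 had 0.09 and -0.02. On the other side, the 730 higher by 0.5 to 1 had -0.24 and -0.15. The 102 probe sets that met the mirrored rule in the first pair, 0.852% of those tested, had medians of -0.36 and -0.23, with 16 and 24 of them higher. The list of SA response genes, whose 4 tested members had a first-pair median of 1.38, had -0.35 and -0.28 in the later pairs. UGT76B1, which had the largest first-pair difference of these (2.73), went the other way in the second pair with 0.65 (SE 0.48) and had -0.31 in the third.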

How the data were processed

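The authors deposited linear intensity signals, 1 per probe set and array, and per the submitters' processing notes the tool was MAS5 (version and settings not given there). MAS5 brings every array to a common level and so hides a shift in the total amount of RNA, and dim probe sets are noisy. Here the 64 control probe sets were left out, 16 was added to the signal before taking log2, and a mean signal of at least 30 over 18 arrays was required. A signal is compared between arrays and never between probe sets. The number of arrays limits the precision.

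The members and all gene lists were chosen with earlier results of these data known. limma 3.58.1 in R 4.3.3 (lmFit, eBayes with a variance trend) was run on the 12 later arrays as 4 run groups with 6 contrasts, and p-values were adjusted by Benjamini-Hochberg over 11967 probe sets at 0.05. The replicate block was an alternative: same-numbered arrays correlated above 0.1 over the mean of the later runs. Other alternatives were the offset, quantile normalization, the filter on dim probe sets, all 18 arrays in the fit, each replicate left out, no variance trend and array weights. Genes named by rule had 1 gene name and were the 14 largest falls, up to 4 members of each gene list or class, calls after adjustment, the 3 highest and 3 lowest of each later pair and the 3 nearest the limit on each side. Further genes and probe sets, added for their role or pattern, were chosen after their values were seen. Figures were drawn with matplotlib 3.10.9. Sorting members by the words of their gene descriptions was void, since 6 of 46 named members have one. Sequences were not used here.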

Additional observations from a re-analysis of the deposited data

Results flagged for a closer look

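In 62 groups of 9 arrays, covering 31 measures in 2 treatments, 5 had an array far from the others by Dixon's test, where chance gives about 1 in 20. AT3G19000 read 7.07 on silwet title 38, with the next array at 6.70, on log2(signal + 16). AT1G01320 read 7.15 on silwet title 41, with the next at 8.10. AT2G05920 read 7.80 on silwet title 40, with the next at 8.24. The median signal of silwet title 41 was 27.4, with the next silwet array at 32.3. The log2 ratio of 3' to 5' actin signal was 2.60 on silwet title 45, with the next at 2.01.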

How the results depend on the processing

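Of 250 alternative values for the counts and medians of the set, 237 stayed within the spread or within 1.5 times the count, and 13 moved by more. No probe set was called in the main setting, so no called value could change sign. For the named genes, 1009 of 1054 alternative differences kept the sign of the main value, and 24 of the 1054 moved by more than the spread. The median between the later SA runs, -0.08 and not called, did turn sign: it was 0.03 without replicate 1 and 0.03 without titles 40, 43 and 52, within a range of -0.23 to 0.03. The number of members was 240 with an offset of 1, 24 with an offset of 64 and 6 with a fall of at least 1.5, and 60 to 268 when a replicate number was left out. The second-pair median, 0.44 in the main setting, was 0.23 against the other later silwet run. The third-pair median, 0.18 in the main setting, was 0.24 with array weights, 0.24 without titles 40, 43 and 52, 0.30 against the other later silwet run, and 0.15 to 0.24 when a replicate number was left out. Over all alternatives the medians of the second and the third pair stayed above 0, from 0.23 to 0.54 in the second pair and 0.15 to 0.30 in the third. For the mean of the later pairs the replicate block called 3 probe sets, 1 of them a member, where 0 were called without it; it changed no other adjusted call. The cause was not tested. Dim signals limit the set: in 18 members the mean of SA 46 to 48 was under 30.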
